A study of Mus musculus with 16 samples.

Results

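Transcript levels of 10 genes of the bone morphogenetic protein (BMP) pathway were followed in mouse brain microvascular endothelial cells (mBMEC). The genes were listed by name, and they are 10 of the 54193 annotated genes with a transcript in the count tables. They comprised the ligands *Bmp2*, *Bmp4* and *Bmp6*, the receptors *Acvrl1* (ALK1), *Bmpr1a* and *Bmpr2*, the co-receptor *Eng* (endoglin), the secreted BMP-binding regulator *Bmper*, and *Smad1* and *Smad5*, which carry the signal to the nucleus. BMP ligands are secreted dimers that bring together type I and type II receptor kinases, and the activated type I receptor phosphorylates SMAD1, SMAD5 and SMAD9, which join SMAD4 and switch on targets such as the *Id* genes and the inhibitory SMADs. In endothelium, ALK1 and endoglin bind the circulating ligands BMP9 and BMP10, and loss of either receptor causes vascular malformations. BMP and SMAD signalling is also a known feature of cerebral cavernous malformations, which follow loss of *Ccm1*, *Ccm2* or *Ccm3* (*Pdcd10*) in endothelial cells.

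RNA-seq was performed on 16 libraries in 6 groups. All cells carried the same alleles, Cdh5(PAC)-CreERT2/PDCD10fl/fl, and came from adult mice of 8 to 10 weeks on a C57BL/6J background, each culture being a pool of several brains. The Cre recombinase was under the endothelial *Cdh5* promoter and acted only after 4-hydroxytamoxifen (4-OHT), and cells were selected with puromycin. The groups were WT without 4-OHT (3 libraries), WT with propranolol (WT+P, 2), WT with rapamycin (WT+R, 2), KO after 4-OHT (3), KO with propranolol (KO+P, 3) and KO with rapamycin (KO+R, 3). Propranolol, a beta-adrenergic blocker, was given at 10 µM and rapamycin, an inhibitor of mTOR complex 1, at 100 nM, each for 24 h. All KO libraries and no WT library had received 4-OHT, so exposure to 4-OHT and loss of *Ccm3* cannot be told apart.

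Libraries held 18.83 to 26.2 M expected counts. *Pdcd10*, the targeted gene, was at 11.5, 31.2 and 47.0 CPM (normalised counts scaled to a common library size) in WT and at 9.72, 11.0 and 9.73 CPM in KO, so the library labelled WT replicate 1 lay near the KO level while the other WT libraries lay above it. Fold changes that rest on that library are also given without it for the members that changed. All 10 endothelial markers were measured, with a summed level of 5430 to 11100 TPM, a unit that scales each library to one total and adjusts for transcript length. Summed markers of astrocytes, microglia and macrophages, oligodendrocytes, neurons and fibroblasts did not exceed 89 TPM in any library. Of the 8 microglia and macrophage markers 4 passed the filter on low counts. *P2ry12* of this list was at 0 in every library, while *Cd68* was at 1.68 to 41 TPM. Mural markers summed to 440 to 517 TPM in WT+R, 29.3 to 149 TPM in WT and at most 281 TPM elsewhere. *Acta2*, a smooth muscle actin gene, accounted for most of that sum, with a mean over libraries of 129 TPM, against 0.906 TPM for *Pdgfrb* and 0.187 TPM for *Rgs5*, which define pericytes.

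Levels of the members, compared between genes as TPM, spanned more than 3 orders of magnitude. Averaged over the 16 libraries, *Eng* (1170 TPM) and *Acvrl1* (525 TPM) were highest, followed by *Bmp4* (288 TPM), *Smad1* (96.9 TPM), *Bmp6* (77.9 TPM), *Bmp2* (61.4 TPM), *Smad5* (23.0 TPM) and *Bmpr2* (20.3 TPM). *Bmper* (0.457 TPM) and *Bmpr1a* (0.238 TPM) were near the lower limit of measurement. In untreated WT libraries, *Eng* at 846 to 1010 TPM and *Acvrl1* at 505 to 531 TPM did not overlap, and *Bmp4* at 175 to 447 TPM lay below both. *Smad1* at 99.9 to 148 TPM lay below *Bmp4* and above *Bmp6* at 51.7 to 97.4 TPM, while *Bmp2* at 51.4 to 140 TPM overlapped both *Smad1* and *Bmp6*. *Smad5* at 19.9 to 32.1 TPM lay above *Bmpr2* at 15.1 to 19.2 TPM in those libraries. Of the type I receptors outside the members, *Acvr1* (ALK2) averaged 33.0 TPM and *Bmpr1b* 0.0763 TPM, and of the type II receptors *Acvr2a* averaged 5.14 TPM and *Acvr2b* 1.56 TPM. Among these BMP type I receptor genes *Acvrl1* had the highest level, and it exceeded *Bmpr1a* at least 1060-fold in every WT library. *Gdf2*, which encodes BMP9, had no count in any library, which allows up to 3 counts in each. *Smad9* averaged 0.0999 TPM, so *Smad1* and *Smad5* made up nearly all transcripts of the SMADs that BMP receptors phosphorylate.

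**Figure D1:**
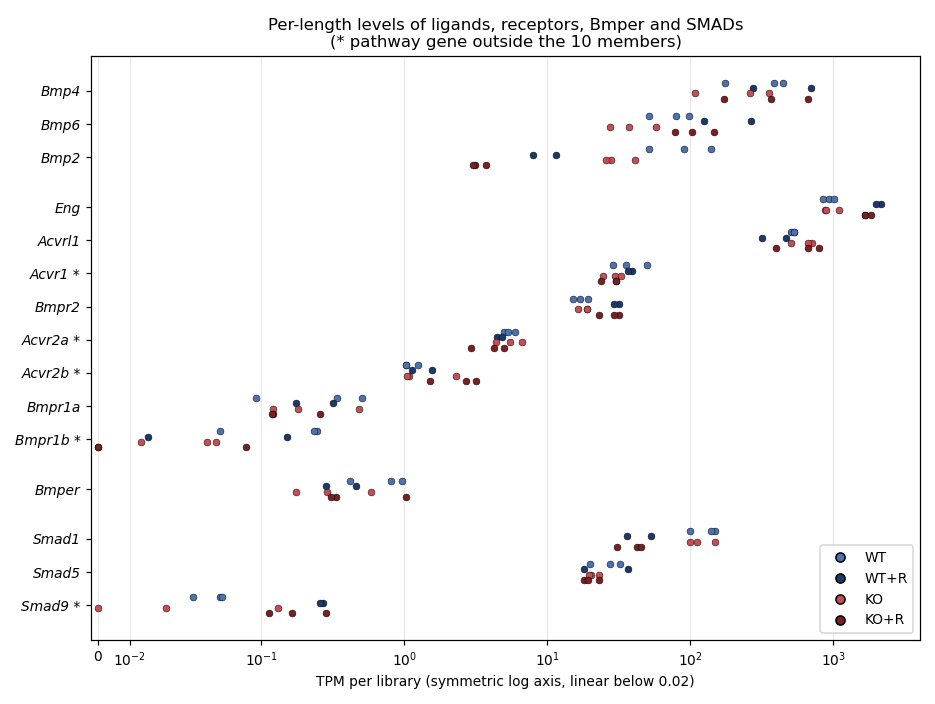
Levels per transcript length (TPM, symmetric log axis) of ligands, receptors, *Bmper* and SMADs, 1 point per library, in WT, WT+R, KO and KO+R; an asterisk marks a pathway gene outside the 10 members. *Eng* and *Acvrl1* lie at the top of the receptors, *Bmpr1a* and *Bmpr1b* at the bottom, and *Bmp2*, *Smad1* and *Eng* separate rapamycin-treated from untreated libraries.

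In the GRCm39 build, *Bmp2* lies at chr2:133394079-133404816 (plus strand), *Bmp4* at chr14:46620250-46636745 (minus), *Bmp6* at chr13:38529065-38684280 (plus), *Acvrl1* at chr15:101025996-101043217 (plus), *Eng* at chr2:32535543-32574661 (plus) and *Bmpr1a* at chr14:34132687-34225379 (minus). *Bmpr2* lies at chr1:59802544-59918173 (plus), *Bmper* at chr9:23134325-23396509 (plus), *Smad1* at chr8:80065023-80126168 (minus) and *Smad5* at chr13:56850797-56890190 (plus). Reads carried no strand, and 31.1% of the exonic bases of *Bmp4* and 11.0% of those of *Eng* overlap genes on the other strand, so that their reads cannot be told apart there. The overlap was below 10% for the other members and 0 for *Bmp2* and *Bmper*. All *Bmp2*, *Bmp6* and *Bmpr2* counts were assigned to 1 transcript each. *Eng* counts were assigned to Eng-201 (75.1 to 81.0% over libraries) and Eng-205 (17.2 to 22.1%), and the share of Eng-201 was 76.1 to 76.9% in KO+R against 75.8 to 79.2% in KO.

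The 250 bases before the start of the most counted transcript are shown for the 5 members whose levels separated rapamycin-treated from untreated libraries in both genotypes. They are read 5′ to 3′ on the strand of the gene from GRCm39. Capitals mark matches on either strand, overlapping matches included. The GC-rich SMAD motif was searched as GGCGCC. The SMAD box, a shorter sequence that SMADs bind, was searched as CAGAC. The core of sites for KLF transcription factors was searched as CACCC.
Bmp2, chr2:133393829-133394078, plus strand: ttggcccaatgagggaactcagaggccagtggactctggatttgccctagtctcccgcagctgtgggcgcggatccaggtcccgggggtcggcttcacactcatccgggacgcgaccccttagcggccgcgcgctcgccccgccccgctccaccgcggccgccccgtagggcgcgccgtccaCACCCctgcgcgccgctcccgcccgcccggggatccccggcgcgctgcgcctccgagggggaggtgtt
Bmp6, chr13:38528833-38529082, plus strand: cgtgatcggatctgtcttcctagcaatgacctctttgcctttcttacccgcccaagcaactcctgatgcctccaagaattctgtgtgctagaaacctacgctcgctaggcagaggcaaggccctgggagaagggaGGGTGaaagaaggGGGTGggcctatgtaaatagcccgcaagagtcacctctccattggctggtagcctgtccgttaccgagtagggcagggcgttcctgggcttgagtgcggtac
Eng, chr2:32536290-32536539, plus strand: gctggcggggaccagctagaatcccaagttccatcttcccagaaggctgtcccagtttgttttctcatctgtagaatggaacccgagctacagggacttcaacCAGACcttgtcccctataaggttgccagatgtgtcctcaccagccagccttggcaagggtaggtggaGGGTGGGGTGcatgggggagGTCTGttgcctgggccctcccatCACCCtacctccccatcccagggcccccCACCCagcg
Bmpr2, chr1:59802294-59802543, plus strand: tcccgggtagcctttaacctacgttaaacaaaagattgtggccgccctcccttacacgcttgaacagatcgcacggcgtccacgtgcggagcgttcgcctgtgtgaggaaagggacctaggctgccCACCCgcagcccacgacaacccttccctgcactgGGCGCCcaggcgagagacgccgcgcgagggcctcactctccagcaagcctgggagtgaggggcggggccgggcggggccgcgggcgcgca
Smad1, chr8:80126169-80126418, minus strand: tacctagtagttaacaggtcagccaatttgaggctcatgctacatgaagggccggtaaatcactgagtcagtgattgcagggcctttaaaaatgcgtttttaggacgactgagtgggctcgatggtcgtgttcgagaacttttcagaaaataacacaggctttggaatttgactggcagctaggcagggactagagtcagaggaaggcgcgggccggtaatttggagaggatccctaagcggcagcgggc

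The *Bmp2* window held 1 CACCC and was rich in G and C (74.8%, against a median of 56.0% over 14837 promoters). The *Eng* window held 2 CAGAC and 4 CACCC matches, *Bmpr2* 1 GGCGCC and 1 CACCC, *Bmp6* 2 CACCC, and *Smad1* none of these letters. Over all 10 members, 2 held GGCGCC (12.3% of all promoters), 2 held CAGAC (41.2%) and 5 held CACCC (55.0%). The windows of the members that fell with rapamycin, *Bmp2* and *Smad1*, shared no match. These matches describe the letters only.

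By edgeR, rapamycin was the condition in which members changed. Of the 10 members, all of which passed the filter on low counts, 4 changed in KO+R vs KO: *Bmp2* and *Smad1* fell, and *Eng* and *Bmpr2* rose (edgeR quasi-likelihood test, Benjamini-Hochberg adjusted p below 0.05 and fold change above 1.5). Over all 14838 tested genes, 224 (1.51%) were called in this comparison, 105 higher and 119 lower. In WT+R vs WT, *Bmp2* fell and *Eng* and *Bmpr2* rose, which made 3 members against 207 genes (1.40%) of all tested. The median log2 fold change over the members was 0.44 in KO+R vs KO and 0.09 in WT+R vs WT, against −0.02 and −0.01 over all genes. In bulk RNA, fewer cells of a type and less RNA per cell cannot be told apart. Libraries with the same replicate number deviated together, and with that number as a block 5 members were called in each comparison, *Bmp6* being added in both and *Smad1* in WT+R vs WT, where 4.98% and 4.56% of all genes were called. DESeq2 also called 5 members in WT+R vs WT (3.64% of all genes), with the block as well (6.66%). Without the block, leaving out 1 library of the groups compared left 0 to 2 members called in KO+R vs KO, with 0 after the loss of any KO+R library, 1 without KO replicate 1 or 3 and 2 without KO replicate 2. In WT+R vs WT it left 0 to 2, with 1 without WT replicate 1, 2 without WT replicate 2, and 0 without WT replicate 3 or either WT+R library. With the block, the same omissions left 4 or 5 members in KO+R vs KO, and 4 or 5 in WT+R vs WT except without WT+R replicate 1, where 1 was left. The direction of *Bmp2*, *Bmp6*, *Eng*, *Bmpr2* and *Smad1* was the same in all fits that left out 1 library without the block. The treated and untreated groups did not overlap for these 5 members in either genotype, as for 24.1% of all genes in KO+R vs KO and 28.6% in WT+R vs WT.

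**Figure D2:**
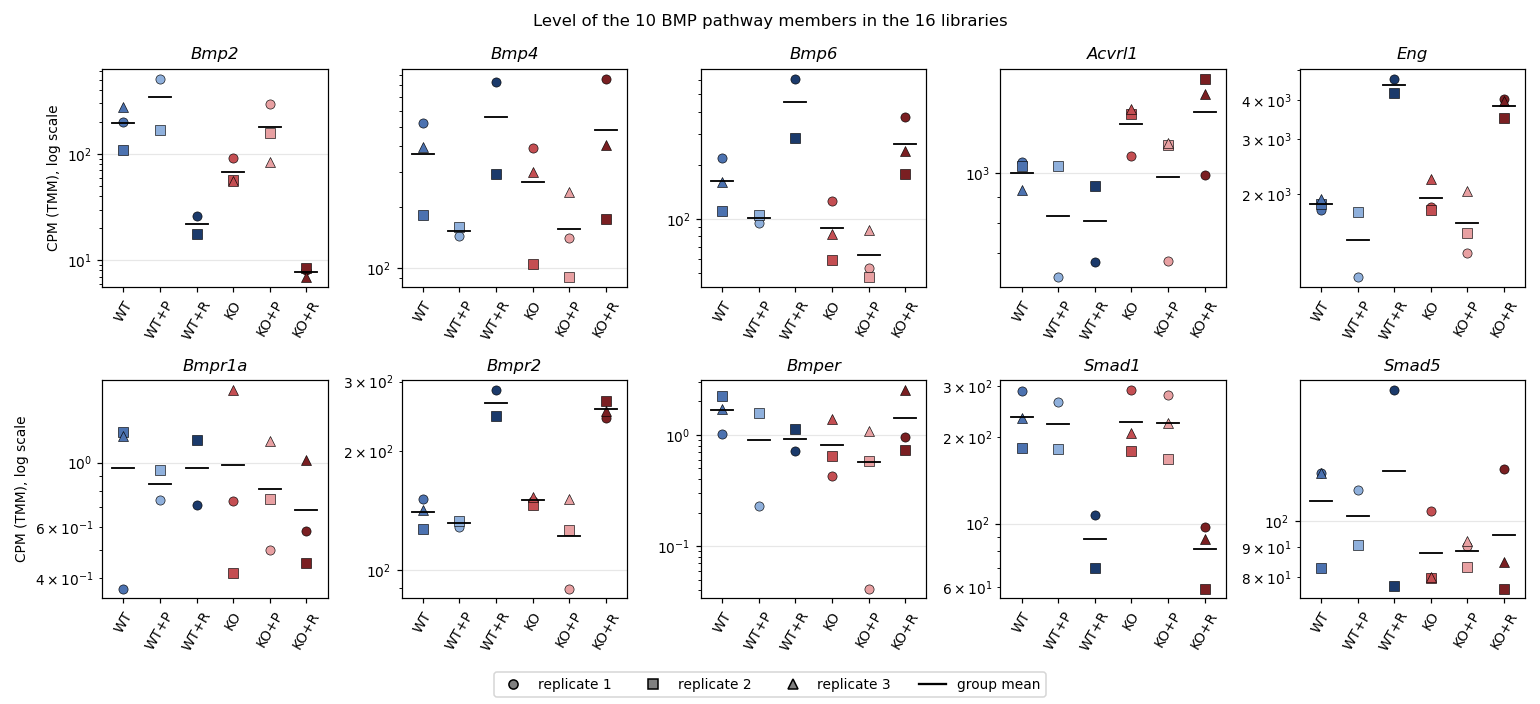
Level of each member (CPM, log axis, scaled per panel) in the 16 libraries by group; marker shape gives the replicate number and the bar the group mean. *Bmp2* and *Smad1* are lower and *Bmp6*, *Eng* and *Bmpr2* higher in every rapamycin-treated library than in every untreated library of the same genotype.

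Among the 3 member ligands, *Bmp2* had the largest change with rapamycin. It was at 91.6, 57.4 and 55.8 CPM in KO and at 8.10, 8.37 and 6.91 CPM in KO+R, and at 201, 110 and 278 CPM in WT against 26.1 and 17.8 CPM in WT+R. Every rapamycin-treated library lay below every library of the other groups. The level was 8.76-fold lower in KO+R than in KO (log2 fold change −3.13, SE 0.52, adjusted p = 0.0126) and 8.92-fold lower in WT+R than in WT (−3.16, SE 0.61, adjusted p = 0.0247). *Bmp6*, a ligand secreted by endothelial cells, differed the other way, at 127, 59.3 and 82.8 CPM in KO and 374, 179 and 240 CPM in KO+R. It was at 219, 111 and 162 CPM in WT and at 613 and 286 CPM in WT+R. The groups did not overlap in either genotype, but without the block the differences were not called (1.56, SE 0.39, adjusted p = 0.0731 in KO; 1.45, SE 0.42, adjusted p = 0.118 in WT). With the replicate block they were (adjusted p = 0.0062 and 0.0153), and the difference within a replicate number was 1.54 to 1.59 in log2 for all 3 KO pairs. Without the library labelled WT replicate 1 and without the block, *Bmp2* was at −3.15 in WT+R vs WT (SE 0.66, adjusted p = 0.0594) and *Bmp6* at 1.71 (SE 0.47, adjusted p = 0.137), and neither was called.

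*Bmp4*, the member ligand with the highest mean TPM over the 16 libraries, was at 393, 105 and 297 CPM in KO. In KO+R it was at 863, 175 and 407 CPM. These groups overlapped, and the difference was smaller than its error allowed to be called (log2 fold change 0.86, SE 0.63, adjusted p = 0.655). Within each of the 3 KO pairs of the same number *Bmp4* was 0.46 to 1.13 higher in log2 with rapamycin. The TPM ratio of *Bmp4* to *Bmp2* had a median of 120 in KO+R (45.9 to 212) and of 8.64 in KO (3.87 to 10.1). In WT+R it was 34.6 and 61.5, and in WT it ranged from 2.74 to 5.00. With propranolol the ratio was 0.922 to 5.44 in KO+P and 0.552 and 1.74 in WT+P, so *Bmp4* was not above *Bmp2* in every library.

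Among the receptors, *Eng* rose with rapamycin from 1810, 1780 and 2230 CPM in KO to 4010, 3500 and 3970 CPM in KO+R. It was at 1770, 1850 and 1930 CPM in WT and at 4680 and 4220 CPM in WT+R. The treated libraries all lay above all other libraries, which ended at 2230 CPM. The log2 fold change was 0.98 (SE 0.20, adjusted p = 0.0316) in KO and 1.27 (SE 0.22, adjusted p = 0.0175) in WT. *Bmpr2*, the type II receptor, was at 149, 146 and 153 CPM in KO and at 243, 268 and 253 CPM in KO+R. In WT it was at 151, 127 and 142 CPM, and in WT+R at 286 and 245 CPM. Its groups were apart in both genotypes, with a log2 fold change of 0.77 (SE 0.15, adjusted p = 0.0262) in KO and 0.92 (SE 0.17, adjusted p = 0.0183) in WT. In WT+R vs WT without the library labelled WT replicate 1, *Eng* was at 1.23 and no longer called (SE 0.26, adjusted p = 0.0608), and *Bmpr2* at 0.98 and called (SE 0.19, adjusted p = 0.0475).

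*Acvrl1*, the partner of endoglin, did not follow it. Its level was 1080, 1300 and 1330 CPM in KO, 991, 1520 and 1420 CPM in KO+R, 1050, 1030 and 927 CPM in WT, and 673 and 944 CPM in WT+R. KO+R spanned KO, and the log2 fold change was 0.08 (95% interval −0.45 to 0.61, adjusted p = 0.952). *Bmpr1a* ranged from 0.368 to 1.78 CPM over all 16 libraries and the groups overlapped, with a log2 fold change in KO+R vs KO of −0.50 (interval −1.80 to 0.80, adjusted p = 0.826). *Bmper*, which binds BMPs outside the cell, ranged from 0.0416 to 2.54 CPM, and its difference was 0.79 (interval −1.06 to 2.64, adjusted p = 0.802). The intervals of these low genes include changes in either direction as large as that of *Bmpr2*.

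**Figure D3:**
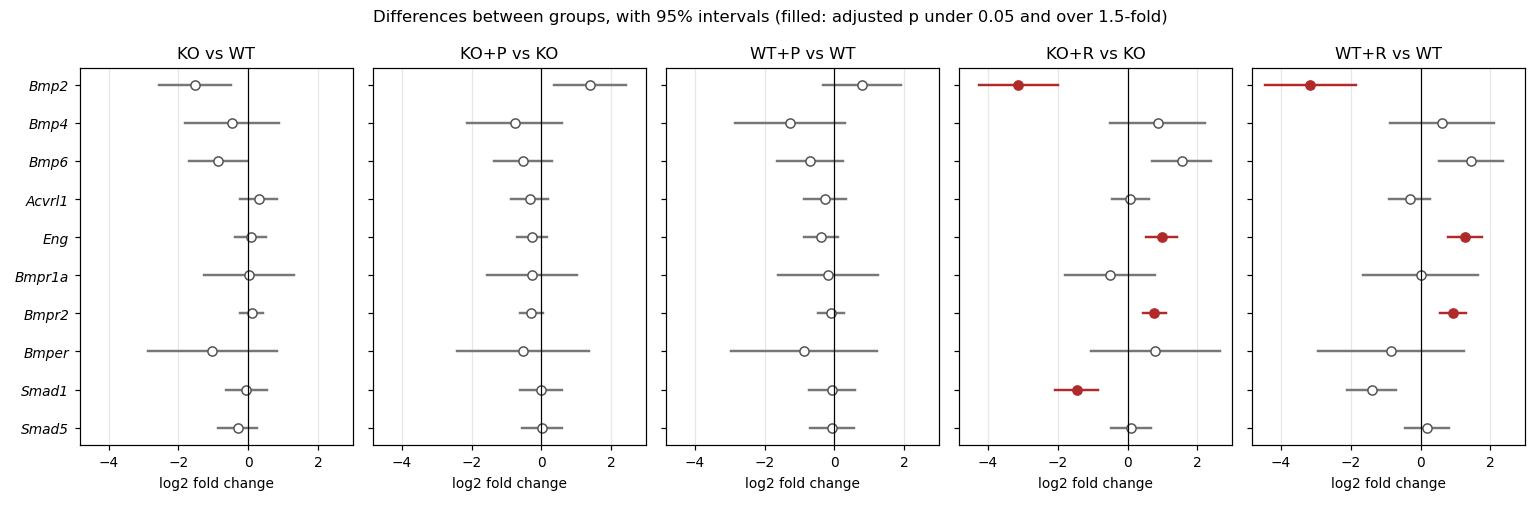
Log2 fold change of each member with its 95% interval in 5 comparisons; filled red points passed adjusted p below 0.05 and a fold change above 1.5. Filled points occur with rapamycin and not with propranolol or in KO vs WT, and *Bmp2* lies near −3.13 in KO and −3.16 in WT.

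The signal SMADs parted. *Smad1* was at 291, 178 and 206 CPM in KO and at 97.3, 59.5 and 88.6 CPM in KO+R, and at 288, 183 and 232 CPM in WT against 107 and 69.9 CPM in WT+R. All 5 treated libraries lay below all 11 others. The log2 fold change was −1.46 (SE 0.28, adjusted p = 0.0243) in KO and −1.40 (SE 0.32, adjusted p = 0.0523) in WT, the latter called with the replicate block (adjusted p = 0.000163). It was −1.23 in WT without WT replicate 1 and the block (SE 0.34, adjusted p = 0.137). *Smad5* was at 104, 79.8 and 80.1 CPM in KO and at 123, 76.5 and 84.9 CPM in KO+R, and it was at 121, 83.0 and 121 CPM in WT and at 168 and 77.2 CPM in WT+R. Its groups overlapped in both genotypes, with a log2 fold change of 0.11 (interval −0.46 to 0.67, adjusted p = 0.937) in KO+R vs KO. The TPM ratio of *Smad1* to *Smad5* was 4.95 to 6.43 in KO and 1.73 to 2.36 in KO+R, and 4.32 to 5.45 in WT and 1.44 to 2.01 in WT+R. *Smad1* thus stayed the higher of the pair in every library of these 4 groups.

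Rapamycin's difference was also compared between the genotypes, as the interaction of drug and genotype. No member was called, and 0 of the 14838 genes were (113 at an unadjusted p under 0.05, edgeR). The interaction was 0.03 in log2 for *Bmp2* (95% interval −1.57 to 1.62), 0.11 for *Bmp6* (−1.13 to 1.34), −0.28 for *Eng* (−0.94 to 0.37), −0.16 for *Bmpr2* (−0.65 to 0.34) and −0.06 for *Smad1* (−0.95 to 0.84). These intervals leave room for differences between genotypes of the size of the *Bmpr2* change for *Bmp2*, *Bmp6*, *Eng* and *Smad1*. Without WT replicate 1 the interactions were 0.03 for *Bmp2*, −0.14 for *Bmp6*, −0.24 for *Eng*, −0.20 for *Bmpr2* and −0.21 for *Smad1*, and 0 members were called.

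No member was called between KO and WT by edgeR. Of all 14838 genes 1 was called (0.00674%), and 2 members had an unadjusted p under 0.05, against 900 genes (6.07%). Over all genes, edgeR with the replicate block called 27, and DESeq2 without it 62. *Bmp2* was lower in each KO library (55.8 to 91.6 CPM) than in each WT library (110 to 278 CPM), 2.87-fold by the means (log2 fold change −1.52, SE 0.48, adjusted p = 0.53 by edgeR). *Bmp2* is among the genes that the study selected as altered by *Ccm3* loss in these same libraries, so its direction here is no independent evidence. *Bmp6* overlapped between KO and WT (−0.87, SE 0.39, adjusted p = 0.793 by edgeR), though it was 0.79 to 0.97 lower in log2 in each KO library than in the WT library of the same number. *Acvrl1* did not overlap, at 1080 to 1330 CPM in KO and 927 to 1050 CPM in WT (0.30, SE 0.24, adjusted p = 0.996). Groups that did not overlap were found for these 2 members and for 13.2% of all genes. The other log2 fold changes were −0.47 for *Bmp4*, 0.07 for *Eng*, 0.02 for *Bmpr1a*, 0.10 for *Bmpr2*, −1.03 for *Bmper*, −0.06 for *Smad1* and −0.30 for *Smad5*, with adjusted p-values of 0.996 or above. Without the library labelled WT replicate 1, *Bmp2* was at −1.52, *Bmp6* at −0.62 and *Acvrl1* at 0.33, again not called. DESeq2 with the replicate block called *Bmp2* and *Bmp6*, as 2.67% of all genes.

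The 2 genotypes were also compared under each drug. In KO+R vs WT+R 0 members and 0 of all genes (0%) were called by edgeR, with 849 genes at an unadjusted p under 0.05. *Bmp2* was lower in KO+R (6.91 to 8.37 CPM) than in WT+R (17.8 and 26.1 CPM) without overlap (log2 fold change −1.50, SE 0.54, adjusted p = 0.725). *Acvrl1* was higher in KO+R, also without overlap (0.69, SE 0.28, adjusted p = 0.807), and *Eng* at 3500 to 4010 CPM lay below its 2 values in WT+R. Groups did not overlap for these 3 members of 10 and for 19.2% of all genes. DESeq2 with the replicate block called *Bmp2* and *Acvrl1*, as 2.23% of all genes. In KO+P vs WT+P 0 members and 0 of all genes (0%) were called, with 918 genes at an unadjusted p under 0.05, and no member was among them. *Bmp6*, at 47.3 to 87.1 CPM in KO+P and at 95.1 and 106 CPM in WT+P, was thus not called either.

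No member was called with propranolol in either genotype by edgeR. In KO+P vs KO and in WT+P vs WT 1 of all tested genes each passed the test (0.00674%), while 1870 and 1464 genes had an unadjusted p under 0.05. The counts over all genes rested on single libraries, since 332 were called in KO+P vs KO without KO+P replicate 3 and 546 in WT+P vs WT without WT+P replicate 2, and DESeq2 called 157 and 117. The members called were 0 in each of these fits. *Bmp2* was at 294, 159 and 84.2 CPM in KO+P, against 55.8 to 91.6 CPM in KO, and at 514 and 170 CPM in WT+P, against 110 to 278 CPM in WT. The treated and untreated groups overlapped in both genotypes (KO+P vs KO log2 fold change 1.39, SE 0.48, adjusted p = 0.326 by edgeR). DESeq2 with the replicate block called it in KO+P vs KO, as 7.12% of all genes. In KO, *Bmp2* was higher with propranolol within all 3 replicate numbers (0.59 to 1.68 in log2), and it was lower with rapamycin within all 3. *Bmp4* was at 141, 90.3 and 238 CPM in KO+P and at 145 and 159 CPM in WT+P, and *Bmp6* at 53.3, 47.3 and 87.1 CPM in KO+P and at 95.1 and 106 CPM in WT+P. Groups did not overlap in WT+P vs WT for *Bmp4*, *Bmp6* and *Eng* (1080 and 1750 CPM in WT+P), all lower with the drug, as for 21.2% of all genes. Without WT replicate 1 their log2 fold changes were −0.94, −0.45 and −0.42, not called. All 10 endothelial markers were also lower by their fold change in WT+P, at a summed 5610 to 7440 TPM against 7880 to 11100 TPM in WT, with 0 called by edgeR and 4 at an unadjusted p under 0.05. In KO+P 9 of the 10 were lower, at a summed 5700 to 8500 TPM against 8300 to 9540 TPM in KO, with 0 called and 3 at an unadjusted p under 0.05. The part of these markers in the levels of the members was not tested. *Smad1* (167 to 280 CPM in KO+P, 181 and 263 CPM in WT+P) and *Smad5* (83.2 to 92.3 CPM in KO+P, 91.0 and 113 CPM in WT+P) overlapped the untreated cells in both genotypes. *Eng* at 1290 to 2040 CPM, *Bmpr2* at 89.6 to 151 CPM and *Acvrl1* at 676 to 1140 CPM in KO+P all overlapped KO, and *Acvrl1* at 630 and 1030 CPM and *Bmpr2* at 128 and 133 CPM in WT+P overlapped WT. In the interaction of propranolol and genotype 0 members and 0 of all genes (0%) were called, with 107 genes at an unadjusted p under 0.05.

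Other genes of the pathway were taken from a list of 72, of which 58 passed the filter on low counts. With rapamycin 8 of the 58 rose and 0 fell in KO+R vs KO, and 6 rose and 0 fell in WT+R vs WT, where 0.708% and 0.647% of all tested genes were called higher. The median log2 fold change of the 58 was 0.10 and 0.18. Among the other SMADs and cofactors 3 of 9 rose in both: the inhibitory *Smad6* and *Smad7*, which block BMP receptors and SMADs, and *Skil*, a SMAD corepressor. *Smad6* was at 48.6, 37.2 and 42.8 CPM in KO and at 242, 281 and 216 CPM in KO+R (log2 fold change 2.52, SE 0.28, adjusted p = 0.00146), and at 41.2 to 54.4 CPM in WT against 162 and 228 CPM in WT+R (1.99, SE 0.29). *Smad7* was at 16.5 to 19.5 CPM in KO and 55.7 to 61.6 CPM in KO+R (1.72, SE 0.11), and at 18.8 to 21.3 CPM in WT and 78.3 and 84.3 CPM in WT+R (2.03, SE 0.12). *Skil* rose by 1.45 and 1.48 in log2 in the 2 genotypes. *Smad4*, the common partner (0.23 in KO, 0.33 in WT), and *Ski* (0.09 and 0.00) were not called. *Smurf2*, a ubiquitin ligase of the pathway, was the 1 of 9 turnover and transport genes that rose (0.75 in each genotype), and *Nbl1*, a secreted BMP antagonist, was the 1 of 14 antagonists and modulators that rose, in KO alone by the test (1.14 in KO; 0.57, adjusted p = 0.362, in WT).

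Of the BMP target genes 3 of 10 rose in KO+R vs KO, all of the *Id* family, which encodes inhibitors of DNA binding by helix-loop-helix factors. The largest log2 fold change among the 10 was 3.55, in a gene not called without the replicate block. *Id3* was at 37.1, 28.1 and 27.5 CPM in KO and at 355, 269 and 279 CPM in KO+R, 9.74-fold higher (log2 fold change 3.28, SE 0.22, adjusted p = 1.3e-05). *Id1* was at 120 to 128 CPM in KO and 312 to 329 CPM in KO+R (1.37, SE 0.26, adjusted p = 0.0233), and *Id2* at 1.25 to 2.63 CPM and 7.05 to 7.57 CPM (1.76, SE 0.31, adjusted p = 0.0156). In WT+R vs WT *Id2* (1.68, adjusted p = 0.0262) and *Id3* (1.90, adjusted p = 0.00234) rose, and *Id1* was at 210 and 245 CPM against 74.5 to 125 CPM (1.16, adjusted p = 0.0614). *Gata2* did not pass (0.02 and 0.08). *Id3* was the 1 pathway gene called in KO vs WT, lower at 27.5 to 37.1 CPM than in WT at 94.9 to 104 CPM (−1.67, SE 0.21, adjusted p = 0.0343). That call held in 5 of the 16 fits that left out 1 library and not without the library labelled WT replicate 1, while the log2 fold change stayed between −1.82 and −1.59. In KO+R *Id3* stood above every WT library. Of the exonic bases, 36.2% of *Id2*, 13.7% of *Id1*, 11.8% of *Id3* and 11.0% of *Smurf2* overlap other genes. With the replicate block 11 pathway genes were called in KO+R vs KO and 10 in WT+R vs WT, all higher, 4 of them target genes in each. The omissions that follow were fitted without the block. Without KO replicate 3 or KO+R replicate 3, 5 were left in KO+R vs KO, and without WT+R replicate 2, 3 were left in WT+R vs WT. Without WT replicate 1, *Smad6* (2.06), *Smad7* (1.99), *Skil* (1.35), *Smurf2* (0.74) and *Id3* (1.89) were called in WT+R vs WT and *Id2* was not (1.66, adjusted p = 0.0864 by edgeR).

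**Figure D4:**
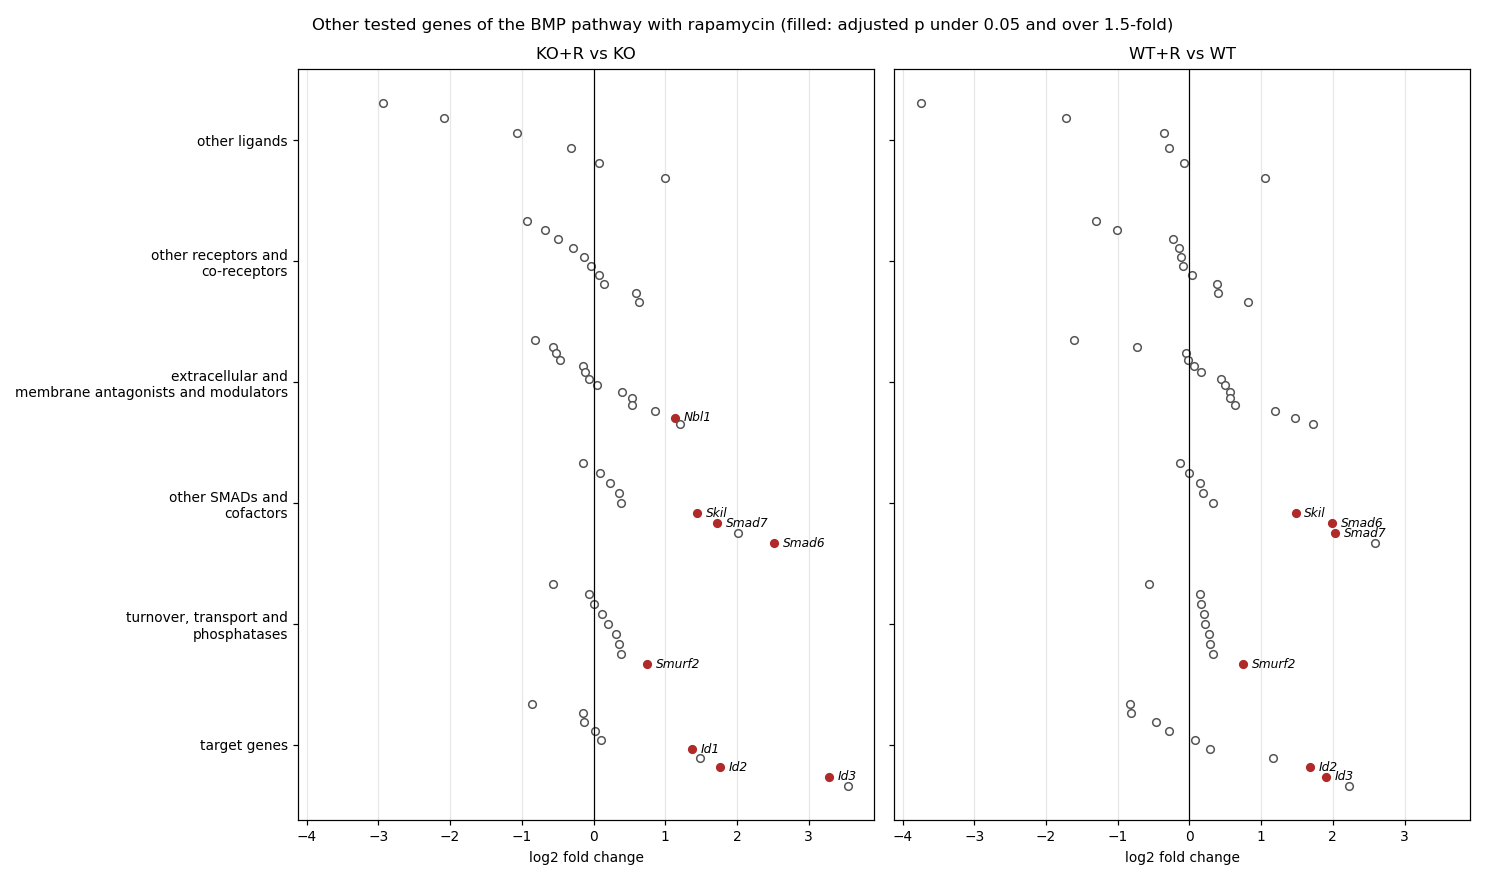
Log2 fold change with rapamycin of the 58 tested pathway genes outside the members, by functional group, in KO (left) and WT (right); filled red points passed adjusted p below 0.05 and a fold change above 1.5. All filled points lie to the right of 0, and *Smad6*, *Smad7*, *Skil*, *Smurf2*, *Id2* and *Id3* are filled in both panels.

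Without the replicate block, no other ligand or receptor of the list was called with rapamycin. With the block *Inhba* (1.06 in KO, adjusted p = 0.0229; 1.08 in WT, adjusted p = 0.0364) and the receptor *Tgfbr1* (0.62, adjusted p = 0.0326; 0.80, adjusted p = 0.0206) were called in both genotypes by edgeR. Among the other ligands, *Bmp1*, a protease that processes BMP antagonists and collagen, averaged 146 CPM with a log2 fold change of 0.07 in KO+R vs KO, and *Inhba*, an activin subunit, averaged 135 CPM with 0.99 (adjusted p = 0.284). *Inhbb*, another activin subunit, averaged 10.4 CPM with −0.31. Among the receptors, *Tgfbr2* (947 CPM) was at −0.93 (adjusted p = 0.287), *Acvr1* (57.0 CPM) at 0.08 and the co-receptor *Rgmb* (55.4 CPM) at −0.13. Among the modulators, *Crim1* (1170 CPM) was at 0.54, *Fstl1* (407 CPM) at 0.86 and *Htra1* (203 CPM) at −0.14, and among the turnover genes *Fkbp1a* (1200 CPM), which encodes the protein that rapamycin binds, was at 0.31, *Smurf1* at 0.36 and *Ctdsp1* at 0.39. With propranolol 0 of the 58 were called in either genotype by edgeR. Without KO+P replicate 3, 4 were called in KO+P vs KO, namely *Tgfbr2*, *Ski*, *Id1* and *Hey1*, all lower, and DESeq2 with the replicate block called 8 there. In WT+P vs WT 0 were called under every alternative.

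Markers of the endothelium and of other cells were read beside these results. The summed endothelial markers were at 6530 to 7870 TPM in KO+R against 8300 to 9540 TPM in KO, and at 5430 to 6060 TPM in WT+R against 7880 to 11100 TPM in WT, and 0 of the 10 were called in either comparison without the block. With it *Egfl7* was called lower in WT+R vs WT (−0.70, adjusted p = 0.0111 by edgeR). The summed mural markers were at 51.2 to 115 TPM in KO+R against 21.6 to 43.2 TPM in KO, with 0 of 7 tested called, and *Acta2* was the 1 of 7 called in WT+R vs WT (log2 fold change 2.74, SE 0.61, adjusted p = 0.0469). Summed microglia and macrophage markers were at 4.39 to 17.0 TPM in KO+R and 18.3 to 41.6 TPM in KO, and at 3.08 to 9.05 TPM in WT+R and 7.82 to 23.6 TPM in WT, with 0 of 4 tested called without the block. With it *Cd68* was called lower in KO+R vs KO (adjusted p = 0.00869 by edgeR) and in WT+R vs WT (adjusted p = 0.0389), and *Csf1r* in KO+R vs KO (adjusted p = 0.0303). The part of these cells in the changes of the members was not tested.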

How the data were processed

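For each of the 16 libraries the authors deposited, per transcript, expected counts that were not normalised between libraries, TPM values and effective lengths in the format of Salmon (version 1.5.2 in the submitters' processing notes, build GRCm39). The index and options are not given in the sources used here, and the methods of the study describe alignment with STAR and counting with HTSeq. RNA was poly(A)-selected and unstranded. Transcripts were assigned to genes with GENCODE M39 (139544 of 140789, 99.12%), and counts were summed and rounded. Deposited TPM values were summed per gene. No column lacked a sample (0 unused).

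Genes with few counts were removed with filterByExpr (14838 of 27228 kept), TMM factors were 0.934 to 1.04, and all groups were fitted in 1 edgeR 4.0.16 quasi-likelihood model (R 4.3.3, 10 residual degrees of freedom, Benjamini-Hochberg over all tested genes, threshold 0.05 with a fold over 1.5, and 0.05 alone for interactions). Variation between cultures amounted to a biological coefficient of 32.3% (19% when the replicate number was a term). Same-numbered libraries correlated in their deviations from the group means at 0.19 to 0.69 in the comparisons (0.03 to 0.69 over all 36 pairs, median 0.52). Pairs of replicate 3 lay at 0.03 to 0.41. The 70 pairs of different number had a median of −0.23, but subtracting the group means forces such values down, so they are no contrast. The pairing by number comes from the values, not the labels. The code was tested on simulated counts. Alternatives were DESeq2 1.42.0, other filters and scalings, an effective length offset, single libraries left out and the block. Leaving out libraries in the fit with the block was added after seeing the data. The members, lists and tests were chosen with earlier results of these data known. Named were all members, pathway genes called in a comparison, the 3 of each pathway group with the highest mean level, and the 5 genes most alike to *Bmp2*; *Bmpr1b*, *Acvr2a*, *Acvr2b*, *Smad9*, *Gdf2*, *Acta2*, *Pdgfrb*, *Rgs5* and *P2ry12* were named after their values were seen. P-values without the block measure the spread between cultures. Those with the block measure the spread left once the replicate number is a term.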

Additional observations from a re-analysis of the deposited data

How the results depend on the processing

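Several calls depend on the tool together with the replicate block. With DESeq2 and the replicate block, 2 members (*Bmp2*, *Bmp6*) were called in KO vs WT, 1 (*Bmp2*) in KO+P vs KO and 2 (*Bmp2*, *Acvrl1*) in KO+R vs WT+R, against 0 in each by edgeR, with or without the block. In WT+R vs WT, 5 members were called by edgeR with the replicate block, also without WT replicate 1, by DESeq2 and by DESeq2 with the block, and 0 when only the libraries of these groups were fitted, in place of 3. Leaving out 1 KO or KO+R library gave 0 to 2 members in KO+R vs KO. Leaving out 1 WT library gave 0 to 2 in WT+R vs WT. Fewer libraries then entered the contrast. No member call was lost in number when a library outside the groups compared was left out. A lone WT+P or WT+R library was assumed to vary like the other groups. By edgeR the block also added *Bmp6* in KO+R vs KO, for 5 members in place of 4, and it changed no other member call. Over the alternatives other than single libraries left out, 3 to 5 members were called in KO+R vs KO. *Bmpr2* was called there in 7 of 8 such fits. *Bmpr1a* in KO vs WT, at 0.02 in log2, was −0.05 with the replicate block in edgeR and DESeq2, −0.18 with an effective length offset and −0.33 with the block and without WT replicate 1. With 1 library left out it ranged from −0.73 to 0.38, *Eng* from −0.05 to 0.13 and *Smad1* from −0.29 to 0.11 in KO vs WT. In KO+R vs KO *Acvrl1* ranged from −0.01 to 0.27, *Bmpr1a* from −0.90 to 0.25 and *Smad5* from −0.10 to 0.26, and none of these 6 differences was called. The cause was not tested. Of the recomputed log2 fold changes, 921 kept their direction and side of the threshold, 24 passed it newly, 73 no longer passed it and 14 changed direction. *Bmpr1a* and *Bmper*, near 1 CPM or below, are the members that depth limits.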

Other observations

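The genes whose levels were most like that of *Bmp2* were *Cldn4* (Pearson's r of log2 CPM 0.97), *Slc16a6* (0.97), *Gm15681* (0.96), *Zfp827* (0.96) and *Sh2b1* (0.96), among the 12401 candidates that averaged 1 CPM or more, over the 16 libraries after removal of the replicate number. Without that removal r was 0.96, 0.90, 0.96, 0.96 and 0.87. The points share libraries and treatment groups, so these values describe a likeness of pattern only.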
